A study of Mus musculus with 6 samples.

Results

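Chil3, Retnlg, Ngp, Ltf, Camp, Lcn2, Cebpe, Wfdc21 and Asprv1 are 9 genes named for granulocytes, and their transcripts were followed through the cells of mouse pancreatic tumours by single-cell RNA sequencing. The 9 were chosen by symbol, with earlier results of these data known, and all 9 were found among the 32285 genes of each library. Their levels, their co-detection and their differences between libraries are therefore given as a description. Where fits across all genes are quoted, they serve for the size of a difference and for the share of all genes called, and a member that passed in one of them is no independent evidence.

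Each library came from an orthotopic tumour, grown by injecting KPC cells, a mouse pancreatic cancer line, into the pancreas of a C57BL/6 mouse 6 to 8 weeks old and collected 4 weeks after injection. The injected cells carried either an overexpression construct for MLKL, the membrane-permeabilising executioner of necroptosis (OE-MLKL), or the empty construct (OE-Vector), and all mice shared strain, line and time. Counts were analysed for 1 OE-Vector library and 3 OE-MLKL libraries, and the other 2 of the 6 labelled samples, both OE-Vector, were not analysed here. With 1 OE-Vector library, a difference from OE-MLKL cannot be told apart from a difference between 2 tumours.

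The 4 libraries held 150591289 to 169978362 UMIs (unique molecular identifiers, each standing for 1 captured transcript), and 13489 to 18808 cells each were kept, 63182 in all. The targeted gene did not separate the groups: Mlkl was at 15.6 CPM (UMI counts scaled to 1e6 per library and gate) in cancer-gated cells of OE-Vector 1 and at 9.20, 12.7 and 19.9 in OE-MLKL 1, 2 and 3, lower in 2 of these and higher in 1, so that "OE-MLKL" below means the libraries labelled so. Whether transcripts of the construct are counted under this gene is not given in the sources used here. Between 56 and 88 cell barcodes were shared by any pair of libraries, and, as with them, no member passed the test of OE-MLKL against OE-Vector in neutrophils when these cells were left out.

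Neutrophils are made in the bone marrow, where successive stages load different granules. Azurophil granules come first and hold myeloperoxidase and elastase, specific granules come next and hold lactoferrin, cathelicidin and lipocalin 2, and gelatinase granules come last. Transcripts of specific granule proteins are known from myelocytes and metamyelocytes and are largely lost in mature cells, whereas Retnlg is a gene of mature circulating neutrophils. C/EBPε, encoded by Cebpe, is the transcription factor on which specific granules depend.

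Neutrophils were gated as cells in which S100a8 and S100a9, the subunits of calprotectin, made up at least 1% of UMIs. This gave 4853, 4765, 7296 and 5385 cells in OE-Vector 1 and OE-MLKL 1, 2 and 3, 22299 in all, or 30.3% to 38.8% of each library. Their median depth was low, at 1166, 727, 749 and 1366 UMIs per cell. At least 2 of 9 neutrophil genes that the gate did not use, among them Cxcr2, Csf3r and Il1r2, were detected in 98.8%, 89.5%, 90.3% and 99.0% of these cells. Macrophages (9557 cells) were gated on the complement genes C1qa, C1qb and C1qc and cancer cells (15037 cells) on epithelial genes, and 16289 cells met none of the gates. At least 2 of the 9 neutrophil genes were also detected in 44.0%, 22.9%, 17.3% and 43.9% of macrophage-gated cells. In cancer-gated cells the shares were 38.8%, 4.73%, 7.01% and 50.6%. Cells of both gates were deeper than neutrophils. No copy-number step was made, so that normal epithelial cells in the cancer gate were not told apart from cancer cells.

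The members lie on 7 chromosomes of GRCm38 in the GENCODE vM21 annotation, and no other annotated gene overlaps any of them. Camp (ENSMUSG00000038357, chr9:109847379-109849617), Ngp (ENSMUSG00000032484, chr9:110419747-110423012) and Ltf (ENSMUSG00000032496, chr9:111019271-111042767) fall within 1.20 Mb of chromosome 9. Chil3 (ENSMUSG00000040809) is at chr3:106147554-106167564 and Retnlg (ENSMUSG00000022651) at chr16:48872621-48874496. Lcn2 (ENSMUSG00000026822) is at chr2:32384633-32388252, Asprv1 (ENSMUSG00000033508) at chr6:86628164-86629710, Wfdc21 (ENSMUSG00000051748) at chr11:83746940-83752642 and Cebpe (ENSMUSG00000052435) at chr14:54710360-54712174.

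Because C/EBP proteins act on promoters of granule genes, the promoters of the members were searched for the C/EBP-type motif TTGCNNAA on both strands. RefSeq (GRCm38.p6) gave 300 bases, from 250 before to 50 after the start, for 7 of the 9 members, all but Cebpe and Wfdc21. Of these, 4 held the motif, namely Ngp, Retnlg, Lcn2 and Ltf, against 10.8% of all 32851 promoters in the table. They are shown with every match in capitals, next to Chil3, which is described first below and whose promoter held no match. Ngp is at chr9:110419558-110419857 (plus strand), Retnlg at chr16:48872358-48872657 (plus strand), Lcn2 at chr2:32387690-32387989 (minus strand), Ltf at chr9:111019042-111019341 (plus strand) and Chil3 at chr3:106167515-106167814 (minus strand).
Ngp: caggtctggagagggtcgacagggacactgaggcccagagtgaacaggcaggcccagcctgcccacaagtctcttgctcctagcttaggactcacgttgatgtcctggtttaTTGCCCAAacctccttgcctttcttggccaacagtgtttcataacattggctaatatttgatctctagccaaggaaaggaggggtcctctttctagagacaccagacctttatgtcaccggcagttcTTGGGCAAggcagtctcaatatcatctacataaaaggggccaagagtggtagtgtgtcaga
Retnlg: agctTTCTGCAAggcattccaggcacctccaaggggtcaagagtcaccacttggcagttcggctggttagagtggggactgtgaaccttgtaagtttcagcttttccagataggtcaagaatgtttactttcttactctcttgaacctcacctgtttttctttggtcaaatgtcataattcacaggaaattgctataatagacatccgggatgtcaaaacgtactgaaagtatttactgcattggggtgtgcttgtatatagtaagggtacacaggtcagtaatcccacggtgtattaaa
Lcn2: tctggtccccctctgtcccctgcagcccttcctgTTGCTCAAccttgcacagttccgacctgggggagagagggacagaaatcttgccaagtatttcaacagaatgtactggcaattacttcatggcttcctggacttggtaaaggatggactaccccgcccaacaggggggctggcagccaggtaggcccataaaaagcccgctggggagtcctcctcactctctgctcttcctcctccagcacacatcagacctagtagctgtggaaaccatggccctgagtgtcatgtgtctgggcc
Ltf: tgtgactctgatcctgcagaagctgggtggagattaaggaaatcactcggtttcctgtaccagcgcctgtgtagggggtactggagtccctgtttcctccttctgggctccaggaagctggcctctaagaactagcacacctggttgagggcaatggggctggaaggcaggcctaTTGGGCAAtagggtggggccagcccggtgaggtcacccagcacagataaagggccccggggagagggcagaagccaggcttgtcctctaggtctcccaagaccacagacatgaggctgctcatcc
Chil3: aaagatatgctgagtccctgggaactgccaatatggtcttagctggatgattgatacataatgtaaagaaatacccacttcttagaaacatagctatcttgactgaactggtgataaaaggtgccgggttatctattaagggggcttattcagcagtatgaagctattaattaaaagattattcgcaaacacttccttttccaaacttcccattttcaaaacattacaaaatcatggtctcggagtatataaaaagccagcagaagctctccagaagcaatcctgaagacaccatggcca
The matches started 138 and 11 bases before the start site in Ngp, 246 before it in Retnlg, 216 before it in Lcn2 and 75 before it in Ltf. The symmetric form TTGCGCAA, which is one instance of TTGCNNAA and of TTNCGNAA, was in none of the 7 and in 0.183% of all promoters, and TTNCGNAA was in none and in 2.47%. GAGGAA, the core that PU.1 is known to bind, was in the promoters of Asprv1, Lcn2 and Ltf and in 28.3% of all, and the ETS-type CCGGAA in none of the 7 and in 14.9%. These are letters in a window and were not tied to binding or to the levels that follow.

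Levels are given in CPM, from a gene's UMIs over all cells of a gate in a library divided by all UMIs of those cells. In neutrophils, Chil3, which encodes the secreted chitinase-like lectin Ym1, had the largest ratio of the OE-MLKL mean to OE-Vector 1 among the 9 members. It was at 58.5 CPM in OE-Vector 1, from 349 UMIs, and at 7469, 8724 and 2539 in OE-MLKL 1, 2 and 3. Its mean over the 3 OE-MLKL libraries was 6244 ± 3269 (SD, n = 3), 107-fold the OE-Vector value, and the lowest of the 3 was 43.4-fold above it. After every cell was thinned to 500 UMIs, Chil3 was detected in 2.06% of neutrophils of OE-Vector 1 and in 91.1%, 88.9% and 50.3% of those of OE-MLKL 1, 2 and 3. OE-MLKL 3 thus stood between OE-Vector 1 and the other OE-MLKL libraries. Of 7 lists of markers of other cells, 4 were higher in the neutrophil gate of all 3 OE-MLKL libraries than of OE-Vector 1: 7 macrophage genes summed to 1243 CPM in OE-Vector 1 and to 2081, 1797 and 2145 in OE-MLKL 1, 2 and 3, 4 monocyte genes to 122 and to 190, 150 and 162, 8 epithelial genes to 165 and to 211, 215 and 225, and 3 B cell genes to 2.85 and to 3.39, 4.46 and 5.61. None of the macrophage, monocyte and epithelial genes was at 0. The sum and the median of the macrophage genes differed in sign, since their median log2 difference in the fit across all genes was -0.30, with Apoe at 0.71 and Cd68 at -1.38. T cell genes (25.3 against 10.1 to 25.8) and eosinophil and basophil genes (6.04 against 1.03 to 9.90) overlapped, and erythroid genes were lower in all 3 (3.69 against 0 to 2.17). Their part in the level of Chil3 was not tested.

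Retnlg, which encodes the secreted resistin-like protein γ, was at 1873 CPM in OE-Vector 1 and at 9783, 5319 and 7311 in OE-MLKL 1, 2 and 3, a mean of 7471 ± 2236 (SD, n = 3) and 3.99-fold higher. Thinned shares of neutrophils with Retnlg were 22.6%, 60.5%, 42.2% and 43.8%. Its UMIs were unevenly spread over cells, since the 1% of neutrophils richest in it carried 27.9% of its UMIs in OE-Vector 1 and 14.2% to 20.8% in the OE-MLKL libraries, and single cells reached 139, 231, 202 and 360 UMIs.

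**Figure D1:**
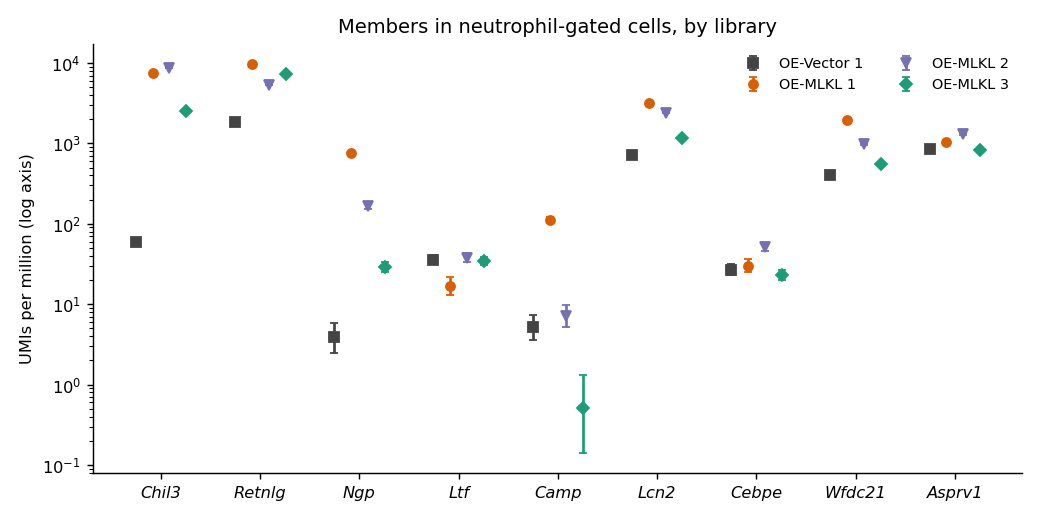
Level of the 9 members in neutrophil-gated cells of each library, in CPM on a log axis; each point is 1 library and bars are exact 95% Poisson intervals, which cover counting error only. Chil3, Retnlg, Ngp, Lcn2 and Wfdc21 are higher in all 3 OE-MLKL libraries than in OE-Vector 1, and the other 4 overlap.

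Among the proteins of specific granules, Lcn2 and Ngp followed the same order of groups and Ltf and Camp did not. Lcn2 encodes lipocalin 2, which withholds iron from bacteria by binding their siderophores. Its level was 726 CPM in OE-Vector 1, against 3192, 2401 and 1176 in OE-MLKL 1, 2 and 3, with a mean of 2256 ± 1016 (SD, n = 3) and a ratio of 3.11. Thinned shares of Lcn2-positive neutrophils were 13.5%, 63.0%, 51.9% and 28.9%, so that every OE-MLKL library exceeded OE-Vector 1.

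Ngp encodes neutrophilic granule protein, which is related to cystatins and cathelicidins. It was at 3.86 CPM (95% interval 2.45 to 5.79, from 23 UMIs) in OE-Vector 1 and at 756, 165 and 29.1 in OE-MLKL 1, 2 and 3, a mean of 317 ± 387 (SD, n = 3). The highest and lowest OE-MLKL libraries differed 26.0-fold in Ngp, more than the lowest differed from OE-Vector 1, which was 7.54-fold. Thinned shares of cells with Ngp were, in the same order, 0.103%, 14.8%, 4.51% and 0.743%.

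Ltf, which encodes the iron-binding lactoferrin, was at 35.9 CPM in OE-Vector 1 and at 16.9, 37.9 and 34.6 in OE-MLKL 1, 2 and 3. Camp, which encodes the precursor of the antimicrobial peptide cathelicidin, was at 5.20 CPM and at 111, 7.20 and 0.510, from 31, 428, 42 and 4 UMIs. The groups overlapped for both genes, and for Camp the OE-MLKL libraries themselves spanned 218-fold. Ltf was detected in 0.399% to 1.69% of thinned neutrophils and Camp in 0.0186% to 0.168%. In OE-Vector 1 the share with Ltf was 1.52% in neutrophils, with 0 of 1848 macrophages and 0 of 1899 cancer cells showing an Ltf UMI at that depth (exact 95% upper limits 0.199% and 0.194%). With all UMIs counted, 3.50% of neutrophils had one, as did 1.14% of those macrophages (22 UMIs) and 2.05% of those cancer cells (45 UMIs), both at a level below the free RNA described below. Ungated cells of that library reached 1.45% after thinning and 3.82% with all UMIs, much as the neutrophils did. Those ungated cells with at least 3 neutrophil check genes held 160 of the 268 Ltf UMIs of ungated cells.

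Most Camp UMIs of 3 libraries came from 1 to 5 cells each. Only 7 neutrophils in the 4 libraries carried 5 or more Camp UMIs, a cut chosen after their values were seen. A single cell held 23 UMIs, 74.2% of the Camp of OE-Vector 1, and it carried 49 UMIs of Lcn2 and none of Ngp. Another single cell held 31 UMIs, 73.8% of the Camp of OE-MLKL 2, beside 73 UMIs of Ngp, 20 of Ltf and 32 of Lcn2. The remaining 5 were in OE-MLKL 1, with 294, 57, 35, 20 and 10 Camp UMIs and between 38 and 101 UMIs of Ngp each. The richest of them, at 5819 UMIs in all, held 68.7% of that library's Camp, 4 UMIs of Cebpe and 4 of Elane, the azurophil elastase, and no Ltf or Retnlg. Mpo, which encodes myeloperoxidase, and Mki67, a marker of cycling cells, were at 0 UMIs in all 7 cells.

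Cebpe, the regulator, was at 27.0 CPM in OE-Vector 1 and at 30.2, 51.5 and 23.2 in OE-MLKL 1, 2 and 3, and the groups overlapped. It was seen in 1.17% to 2.32% of thinned neutrophils, and no neutrophil of any library carried more than 4 UMIs of it.

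Wfdc21 and Asprv1 complete the set. Wfdc21, a small secreted protein with a whey acidic protein domain, was at 401 CPM in OE-Vector 1 and at 1963, 974 and 557 in OE-MLKL 1, 2 and 3, with a mean of 1165 ± 722 (SD, n = 3) and all 3 libraries higher. Asprv1, a retroviral-like aspartic protease otherwise known from the epidermis, was at 843 CPM in OE-Vector 1 and at 1046, 1319 and 826. It was the most even of the members between the libraries, with a mean of 1064 ± 247 (SD, n = 3) on both sides of the OE-Vector value.

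Counted over the set, 5 of 9 members, Chil3, Retnlg, Ngp, Lcn2 and Wfdc21, were higher in all 3 OE-MLKL libraries than in OE-Vector 1 and none was lower in all 3. Over the 12435 genes tested in neutrophils the same held for 42.6% and 15.9%. All 9 members passed the filter on low counts, which a gene could pass on 1 library alone. In the edgeR quasi-likelihood fit with TMM scaling, the log2 difference between OE-MLKL and OE-Vector was 6.51 ± 1.08 (SE) for Chil3, 6.15 ± 2.15 for Ngp, 1.76 ± 0.58 for Retnlg, 1.41 ± 0.68 for Lcn2 and 1.32 ± 0.77 for Wfdc21, beside a median of 0.04 over all genes tested. For the other 4 it was 2.71 ± 2.42 for Camp, 0.13 ± 0.49 for Cebpe, 0.10 ± 0.44 for Asprv1 and -0.51 ± 0.44 for Ltf.

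No gene passed a Benjamini-Hochberg adjusted p of 0.05 in that edgeR fit (0 of 12435, 0.0%), while 996 genes had an unadjusted p under 0.05 and DESeq2 called 75. Some other settings called members, among more or fewer other genes. With no filter on low counts Chil3 was called (57 genes in all, 0.297%), and DESeq2 called Chil3 and Retnlg (75 genes, 0.391%). The fits without OE-MLKL 1 (84 genes, 0.682%) and without OE-MLKL 2 (14 genes, 0.114%) called Chil3 and Ngp. The fit without OE-MLKL 3 called Chil3, Ngp, Retnlg, Lcn2 and Wfdc21, but also 13.4% of all genes tested (1619). Over 14 settings the log2 difference of Chil3 lay between 5.74 and 6.89, of Ngp between 4.40 and 6.79, of Retnlg between 1.49 and 2.05, of Lcn2 between 1.05 and 1.73 and of Wfdc21 between 0.68 and 1.67. The signs of Ltf, Camp, Cebpe and Asprv1 changed between those settings.

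The other neutrophil genes were examined as lists in the same contrast. None of 12 mature neutrophil genes was called (median log2 difference -0.54), nor any of the 9 neutrophil check genes (median -0.57), which summed to 12562 CPM in OE-Vector 1 and to 7671, 7302 and 11095 in OE-MLKL 1, 2 and 3. The sum of the check genes was thus lower in all 3 OE-MLKL libraries. None of 12 tested genes of a list of 13 other specific and gelatinase granule genes was called, and their median log2 difference was -0.05. In OE-Vector 1 and OE-MLKL 1, 2 and 3, the collagenase gene Mmp8 was at 200.1, 971, 773 and 582 CPM and the haptoglobin gene Hp at 496, 1499.8, 1659 and 886. Mmp9, the gelatinase itself, was at 1554, 542, 628 and 1054. Mmp8 and Hp were thus higher, and Mmp9 lower, in every OE-MLKL library. Among 10 genes reported for tumour neutrophils, none was called, and the median log2 difference was -1.98. Ccl3, a chemokine gene of that list, was at 2523 CPM in OE-Vector 1 and at 482, 649 and 889. Of 7 azurophil genes only Prss57 and Prtn3 were abundant enough to test, and neither was called. The median log2 difference of these 2 genes was 1.67. Mpo stood at 1, 1, 0 and 0 UMIs in the neutrophil gate and Elane at 0, 4, 0 and 0.

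Some cells with neutrophil genes lay outside the gate on S100a8 and S100a9. Among ungated cells, 1697, 341, 468 and 1330 of OE-Vector 1 and OE-MLKL 1, 2 and 3 expressed at least 3 of the 9 neutrophil check genes, a class set after seeing the data. Their Chil3 was at 38.9, 4053, 3096 and 195 CPM and their Retnlg at 15.9, 685, 189 and 85.7. The order of OE-Vector 1 below all OE-MLKL libraries held for both genes in these cells too, at lower levels than within the gate, and several of these values were below free RNA, as given next. It did not hold for Lcn2, at 329, 698, 654 and 65.5 CPM, or for Wfdc21, at 37.0, 309, 157 and 15.4, since OE-MLKL 3 was the lowest for both. Ngp kept the order on at most 10 UMIs per library. Across the edge of the gate, Chil3 in OE-Vector 1 was at 58.7 CPM in cells with 0.5% to 1% of the S100 UMIs and at 52.0 in cells with 1% to 2%, and in OE-MLKL 1 it was at 5524 and 6669. Retnlg was at 153 and 208 in OE-Vector 1 and at 1708 and 2556 in OE-MLKL 1. OE-MLKL 2 and 3 were above OE-Vector 1 too, with Chil3 at 1680 to 7621 and Retnlg at 527 to 978. Lcn2 was at 1221 and 879 in OE-Vector 1 and at 1869 and 1792 in OE-MLKL 1. In OE-MLKL 2 it was at 1064 and 1299 and in OE-MLKL 3 at 215 and 276. For Lcn2, OE-MLKL 3 was thus below OE-Vector 1 on both sides of the edge, and OE-MLKL 2 on the lower side.

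Free RNA in the droplets was measured as a background for the low values. Barcodes with at most 100 UMIs, which hold no cell, contained Chil3 at 116 CPM in OE-Vector 1 and at 644, 821 and 447 in OE-MLKL 1, 2 and 3. Retnlg was at 157, 371, 298 and 633 CPM there, and Lcn2 at 225, 210, 225 and 165. The Chil3 level of OE-Vector 1 neutrophils, 58.5 CPM, was below that of its free RNA, whereas that of each OE-MLKL library was above its own free RNA. In the ungated cells with neutrophil genes, Chil3 was below the free RNA in OE-Vector 1 and OE-MLKL 3, and Retnlg in every library but OE-MLKL 1. The part of free RNA in the order of these cells was not tested.

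In macrophages, Chil3 was the member that stood out. It was at 159 CPM in OE-Vector 1 and at 1360, 1002 and 249 in OE-MLKL 1, 2 and 3, a mean of 870 ± 567 (SD, n = 3), with all 3 higher. The macrophage level was below the free RNA of the same library in OE-MLKL 3 (249 against 447) and above it in OE-Vector 1 (159 against 116) and in OE-MLKL 1 and 2. In the macrophage gate the 4 monocyte genes summed to 480 CPM in OE-Vector 1, against 746, 1207 and 594 in OE-MLKL 1, 2 and 3, and the 7 macrophage genes to 21036, against 31340, 27848 and 24655, so that both lists were also higher in all 3 OE-MLKL libraries. The 9 neutrophil check genes (301 against 185 to 306), the epithelial, B cell, and eosinophil and basophil genes overlapped, and T cell and erythroid genes were lower in all 3. The part of these markers in the Chil3 difference was not tested. The ratio of the macrophage to the neutrophil level was 2.72 in OE-Vector 1, against 0.182, 0.115 and 0.0979 in the OE-MLKL libraries, so that only in OE-Vector 1 was Chil3 higher in macrophages than in neutrophils. As a scale for neutrophil RNA in other droplets, the members were also set against S100a8 and S100a9. The gate on neutrophils uses these same genes, so neutrophils were selected for a high share of them and the other gates for a low one. Ratios to neutrophils in the other gates are thus pushed upward by the gating, here and below, and are given as a description. Per 1000 S100a8 and S100a9 UMIs the macrophages held 604, 51.9, 21.6 and 11.2 times as much Chil3 as the neutrophils of their own library.

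Chil3 in macrophages varied with monocyte genes. In macrophage-gated cells with at least 2 of Ly6c2, Ccr2, F13a1 and Vcan, Chil3 was at 219, 3977, 2608 and 597 CPM in OE-Vector 1 and OE-MLKL 1, 2 and 3. In those with none of the 4 it was at 67.5, 890, 650 and 73.0. Macrophage-gated cells with the monocyte genes were higher in each of the 4 libraries, and the cells without them were below the free RNA of their library in all but OE-MLKL 1. Among ungated cells the same held in 3 libraries, and in OE-MLKL 3 cells with the monocyte genes were at 106 CPM and those without at 118. In macrophages the classes, set after seeing the data, also differed in depth, with medians of 8283 and 7666 UMIs per cell in OE-Vector 1 and of 5400 and 3485 in OE-MLKL 1. The part of depth in this difference was not tested.

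**Figure D2:**
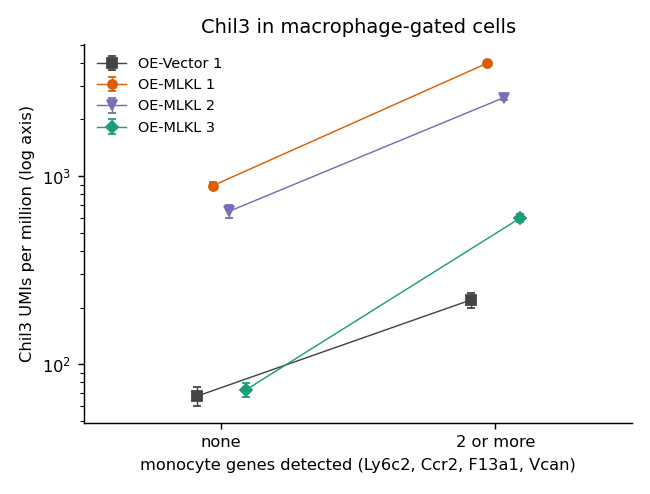
Chil3 in macrophage-gated cells without any and with at least 2 of the monocyte genes Ly6c2, Ccr2, F13a1 and Vcan, in CPM on a log axis; each line is 1 library and bars are exact 95% Poisson intervals for counting error. All 4 lines rise, from 67.5 to 219 in OE-Vector 1 and from 890 to 3977 in OE-MLKL 1.

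Retnlg in macrophages was at 6.66 CPM in OE-Vector 1 and at 19.3, 19.3 and 44.7 in OE-MLKL 1, 2 and 3. Per 1000 S100a8 and S100a9 UMIs this was 0.788, 0.561, 0.682 and 0.702 times the neutrophil value, and in cancer cells 0.821, 0.789, 0.726 and 0.716 times. In both gates, then, the ratio of Retnlg to the S100 genes was somewhat below that in neutrophils. Wfdc21 and Asprv1 stood at 1.29 to 2.36 and 1.12 to 2.00 times in macrophages and Asprv1 at 1.38 to 2.06 times in cancer cells.

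Ngp was at 0 UMIs in the macrophages of OE-Vector 1, where 3 counts would be 0.188 CPM, and at 1.43, 0.930 and 0.245 CPM in OE-MLKL 1, 2 and 3. Lcn2 in macrophages was at 23.1, 24.4, 26.4 and 20.1 CPM, and the groups overlapped. Camp was at 0, 2, 0 and 0 UMIs and Cebpe at 0.448 to 0.942 CPM. Of the 8 members tested in macrophages, all but Camp, 4 were higher in all 3 OE-MLKL libraries (Chil3, Retnlg, Ngp and Wfdc21) and 2 were lower (Ltf and Cebpe), against 34.4% and 18.9% of the 13573 genes tested. All tested members but Chil3 were below the free RNA of the same library in the macrophages of all 4 libraries, and the part of free RNA in these differences was not tested. No member was among the 2 genes called (0.0147%).

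Cancer cells differed from both in Lcn2. It was at 145 CPM in OE-Vector 1 and at 47.5, 56.7 and 61.3 in OE-MLKL 1, 2 and 3, a mean of 55.2 ± 6.98 (SD, n = 3) and 0.380 times the OE-Vector level. Lcn2 is known to be made by epithelial cells as well as by neutrophils. Per 1000 S100a8 and S100a9 UMIs the cancer cells held 82.4, 8.54, 7.83 and 8.21 times as much Lcn2 as the neutrophils. On that scale cancer cells were at 798, 399, 234 and 138 UMIs of Lcn2 and free RNA at 43.7, 60.5, 45.7 and 20.3. The source of Lcn2 in this gate was not tested. Thinned shares of cancer cells with Lcn2 were 6.53%, 2.13%, 2.63% and 2.98%. All 3 OE-MLKL libraries were thus below OE-Vector 1 in cancer cells, while all 3 were above it in neutrophils. In every library the Lcn2 level of cancer cells was below that of the free RNA, and the part of free RNA in it was not tested. Of the marker lists in this gate, 3 were lower in all 3 OE-MLKL libraries: the 4 erythroid genes, at 37.2 CPM in OE-Vector 1 against 0.166 to 0.306, the 3 B cell genes, at 2.79 against 0.967 to 1.79, and the 4 eosinophil and basophil genes, at 1.89 against 0.0831 to 0.235. The epithelial (1385 against 1000.3 to 1495), neutrophil check (62.0 against 25.9 to 104), macrophage, monocyte and T cell genes overlapped. The part of these lists in the Lcn2 difference was not tested.

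**Figure D3:**
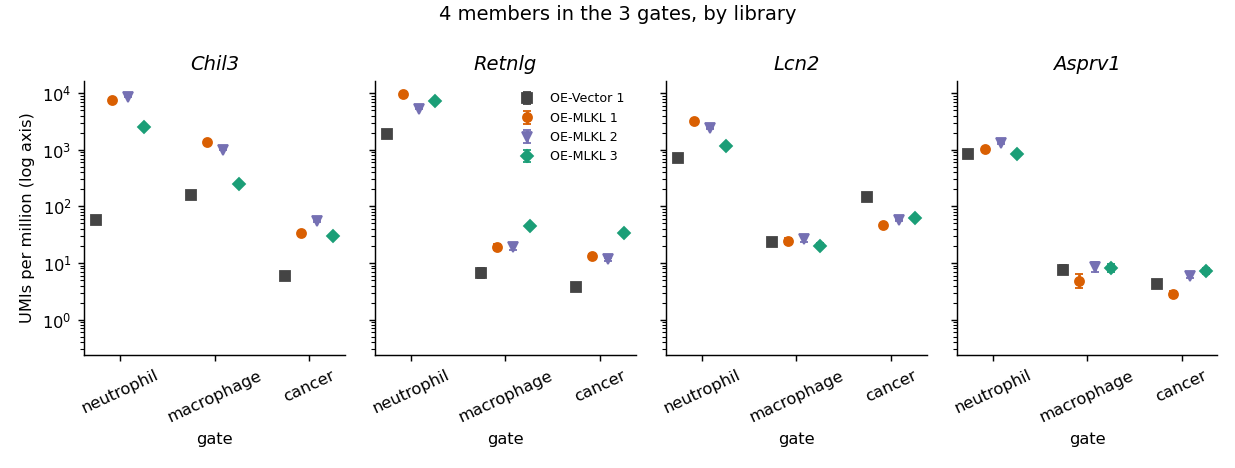
Chil3, Retnlg, Lcn2 and Asprv1 in neutrophil-, macrophage- and cancer-gated cells of each library, in CPM on a log axis; points are libraries and bars exact 95% Poisson intervals for counting error. Lcn2 is above OE-Vector 1 in all OE-MLKL neutrophils (1176 to 3192 against 726) and below it in all OE-MLKL cancer cells (47.5 to 61.3 against 145).

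The other members were lower still in cancer cells. Chil3 was at 5.86 CPM in OE-Vector 1 and at 34.5, 55.3 and 30.1 in OE-MLKL 1, 2 and 3, and Retnlg at 3.73, 13.5, 11.6 and 33.2, again all below the free RNA of the same library. Relative to S100a8 and S100a9, Chil3 was 41.3 times the neutrophil ratio in OE-Vector 1 and 1.87 to 2.65 times in the OE-MLKL libraries. Free RNA was not far below cancer cells on that scale. Per 1000 S100a8 and S100a9 UMIs, OE-Vector 1 had 32.2 UMIs of Chil3 in its cancer gate and 22.4 in its free RNA. For OE-MLKL 1, 2 and 3 the cancer gate was at 289, 229 and 67.7, against 185, 167 and 55.0 in free RNA. The part of free RNA in these ratios was not tested. Ltf was at 0.896, 0.287, 0.692 and 1.98 CPM and Asprv1 at 4.20, 2.82, 5.87 and 7.23. Of 8 members tested, 4 were higher in all 3 OE-MLKL libraries (Chil3, Retnlg, Ngp and Wfdc21) and 1 was lower (Lcn2), against 32.5% and 17.4% of 16689 genes. The 1 gene called (0.00599%) was Hbb-bs, a haemoglobin gene and no member, which was lower.

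Reads shared with related genes could shift some of these levels. Chil4, close to Chil3 in sequence and next to it on chromosome 3, was at 1.56 CPM or less in the neutrophils of every library. Retnla, a neighbour of Retnlg on chromosome 16, was at 5.03, 0.260, 1.03 and 2.42 CPM in neutrophils. Wfdc17, related to Wfdc21, was at 821, 2316, 1411 and 2071 CPM in neutrophils, of the same order as Wfdc21. How reads common to both were handled was not tested. In cancer cells Chil4 was at 11.5 CPM in OE-Vector 1, above Chil3 at 5.86, and at 0.209 to 3.77 in the OE-MLKL libraries. In macrophages Retnla was at 92.9 CPM in OE-Vector 1, above Retnlg at 6.66, and at 0.806 to 17.6 in the OE-MLKL libraries. Wfdc17 was at 546 to 1849 CPM in macrophages, above Wfdc21 at 4.27 to 10.4. Shared reads were not tested in these gates either.

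Co-detection was measured in neutrophils thinned to 500 UMIs, as the number of cells with both genes over the number that independent detection in the same library would give. Of 36 pairs of members, 18 had at least 5 cells expected in every library. Retnlg, Lcn2, Wfdc21 and Asprv1 were found together more often than that in all 4 libraries, for each of their 6 pairs. The ratio for Retnlg with Wfdc21 was 1.75 in OE-Vector 1, then 1.19, 1.34 and 1.47 in OE-MLKL 1, 2 and 3. For Lcn2 with Wfdc21 it was 1.86, 1.11, 1.21 and 1.52, and for Retnlg with Lcn2 1.87, 1.10, 1.18 and 1.32. The pairs with Asprv1 were at 1.02 to 1.28.

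Ngp belonged with these 4 genes by its cells, though it was too rare in OE-Vector 1 for the same count. Retnlg was detected in 3 of 5 Ngp-positive neutrophils of OE-Vector 1, in 618 of 703 in OE-MLKL 1, in 259 of 329 in OE-MLKL 2 and in 38 of 40 in OE-MLKL 3. The observed number was 2.65, 1.45, 1.87 and 2.17 times the expected one. Ngp with Wfdc21 gave 1.42, 1.80 and 2.63 in the 3 OE-MLKL libraries. In OE-Vector 1, 0 of the 5 Ngp-positive cells had Wfdc21 and 0 had Lcn2, where 0.667 and 0.673 cells were expected.

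Ltf was found with Retnlg less often than expected in all 4 libraries. Of its cells, 1 of 74 in OE-Vector 1, 7 of 19 in OE-MLKL 1, 29 of 123 in OE-MLKL 2 and 8 of 79 in OE-MLKL 3 also had Retnlg, which was 0.0597, 0.609, 0.559 and 0.231 times the expected number. Ltf with Lcn2 and Ltf with Asprv1 were also below 1 in all 4 libraries, though nearer to it in OE-MLKL 1 and 2. With Lcn2 the ratio was 0.603 in OE-Vector 1, then 0.919, 0.862 and 0.526 in OE-MLKL 1, 2 and 3. With Asprv1 it was, in the same order, 0.392, 0.857, 0.935 and 0.646. In OE-MLKL 1, 11 of 19 Ltf-positive cells had Lcn2. Ltf with Wfdc21 was at 1.28 in OE-MLKL 1, where 12 cells had both, and at 0.304 to 0.490 in the remaining libraries. With the S100 gate raised from 1% to 5%, the share with Retnlg in OE-Vector 1 rose from 22.6% to 35.5%. The share with Ngp, Ltf or Camp, mostly Ltf there, fell from 1.71% to 0.919%, whereas it rose in each OE-MLKL library. The part of the S100 level in these ratios was not tested. Ltf and Camp, both textbook specific granule genes, shared 2 cells in OE-MLKL 1 and 1 in OE-MLKL 2, which was 62.7 and 7.41 times the expected number, and none in the other 2 libraries, on counts too low to read.

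Chil3 was found with Retnlg, Wfdc21 and Asprv1 less often than expected, though close to it in OE-MLKL 1 and 2. With Retnlg its ratio was 0.618 in OE-Vector 1, then 0.997, 0.941 and 0.748 in OE-MLKL 1, 2 and 3, and with Wfdc21 and Asprv1 it was between 0.705 and 0.993. Where 91.1% of cells carry Chil3, as in OE-MLKL 1, a ratio has little room to leave 1. Chil3 with Ngp gave 1.01, 0.947 and 0.348 in the OE-MLKL libraries, so that Ngp-positive cells of OE-MLKL 3 had Chil3 in only 7 of 40 cases. Cebpe with Wfdc21 was below 1 in each library, between 0.703 and 0.769.

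**Figure D4:**
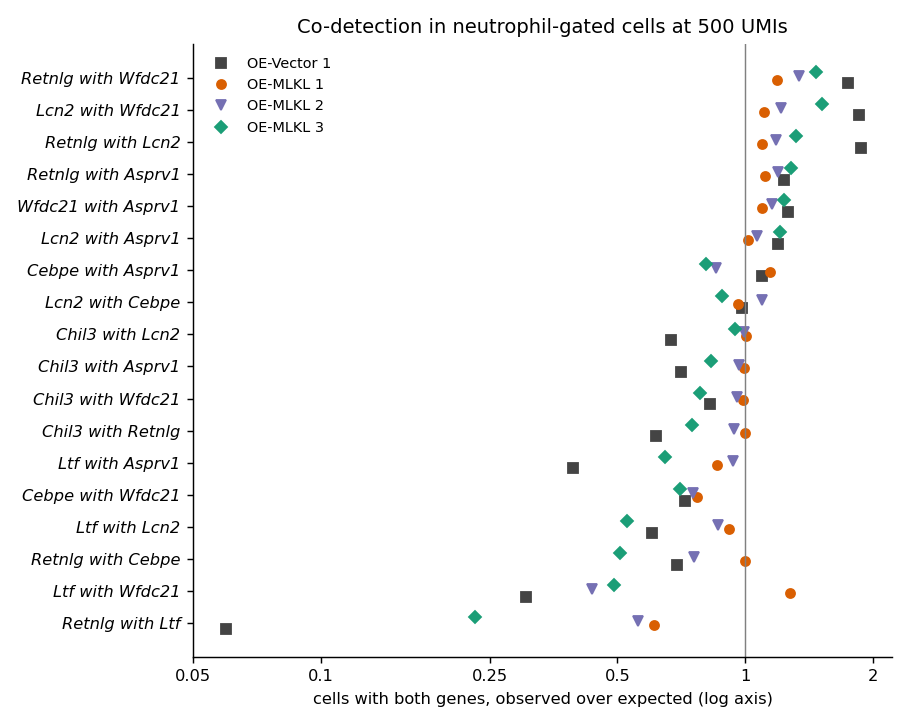
Cells with both genes over the number expected from independent detection, for the 18 pairs of members with at least 5 expected cells in each library, in neutrophils thinned to 500 UMIs; each point is 1 library on a log axis and the vertical line marks a ratio of 1. The 6 pairs among Retnlg, Lcn2, Wfdc21 and Asprv1 lie to the right of the line in all 4 libraries, and Retnlg with Ltf lies farthest to the left, down to 0.0597.

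Counted per cell at the same depth, none of the 9 members was detected in 46.3% of neutrophils of OE-Vector 1 and in 1.18%, 1.21% and 12.4% of those of OE-MLKL 1, 2 and 3. At least 5 were detected in none of the 4853 cells of OE-Vector 1 (0 cells, where 3 cells would be 0.0618%) and in 14.7%, 6.47% and 0.669% of the OE-MLKL libraries.

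To ask which other genes accompanied the members from cell to cell, neutrophils with and without a UMI of a member were summed separately in each library, at 500 UMIs per cell, and compared across the 4 libraries with library as a block (edgeR quasi-likelihood test, Benjamini-Hochberg adjustment). The gene or genes that define a split take no part in its counts, whereas the other members, where tested, do. For Retnlg, with 1099, 2882, 3078 and 2359 positive cells, 803 of 8438 genes were higher (9.52%) and 344 were lower (4.08%) in Retnlg-positive cells, 13.6% in all, around a median log2 change of -0.01.

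Granule genes outside the set were higher with Retnlg. Of the list of 13, 11 were tested, 9 were higher and none lower, with a median log2 change of 0.87. Mmp8, the neutrophil collagenase, was 1.76 ± 0.16 (SE) higher, and its level with and without Retnlg was 480 and 113 CPM in OE-Vector 1, 1158 and 604 in OE-MLKL 1, 1061 and 482 in OE-MLKL 2 and 865 and 203 in OE-MLKL 3. Slpi, an inhibitor of neutrophil elastase, was 1.51 ± 0.11 higher, the metalloprotease gene Adam8 1.29 ± 0.10, and Pglyrp1, which encodes a peptidoglycan recognition protein, 1.16 ± 0.10. Anxa1, Hp, Mmp25, Lyz2 and Mmp9 were also higher, by 0.39 to 0.96, and Cd177 (0.22) and Olfm4 (0.60) did not pass. Over 11 alternatives 7 to 10 of these genes were called higher and none lower.

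Genes of mature neutrophils were higher too, in 9 of 12 genes of that list, with a median log2 change of 0.51 and none lower. The formyl peptide receptor gene Fpr1 was 0.89 ± 0.13 higher, the chemokine receptor gene Cxcr2 0.69 ± 0.09 and the G-CSF receptor gene Csf3r 0.44 ± 0.08. Il1r2, Il1b and Clec4e, at 0.11, 0.19 and 0.12, did not pass. Of the 9 neutrophil check genes, some of them also on that list, 8 were higher. Genes reported for tumour neutrophils were lower in 7 of 10 and higher in none, with a median of -0.49. Ccl3 fell by 1.59 on the log2 scale, Siglecf, a sialic acid-binding receptor, by 1.22, Ccl4 by 1.11 and Icam1 by 0.77. Ccl3 was at 500 CPM with and 2978 without Retnlg in OE-Vector 1, and at 299 and 753 in OE-MLKL 1. Over the alternatives 5 to 7 of these were called lower.

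Of 6 tested transcription factors of granulocytes, Spi1 (0.53), Cebpd (0.40) and Cebpb (0.31) were higher. Hmgb2 was higher (0.81) and Pcna lower (-0.41) among 9 tested genes of proliferation, and Mki67 (-0.18) and Top2a (0.08) did not pass. No azurophil gene was abundant enough to test. Among genes of other cells, of 7 macrophage genes Csf1r was higher (0.37) and Adgre1 lower (-0.68), of 2 tested monocyte genes Ly6c2 was higher (0.43), and none of 4 tested epithelial genes was called.

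By size of change, the genes highest with Retnlg were Stfa3 (2.92 ± 0.25), Ly6g (2.46 ± 0.29), Stfa2 (2.45 ± 0.19), Scrg1 (2.39 ± 0.25), Rdh12 (2.26 ± 0.12), Cstdc5 (2.19 ± 0.16) and Wfdc17 (2.01 ± 0.09), followed by Mrgpra2b, 9830107B12Rik and Mmp8. Ly6g is the surface protein by which mouse neutrophils are usually identified, and Stfa2, Stfa3 and Cstdc5 are stefin-type protease inhibitors whose near-identical copies may share reads. Ly6g was at 78.3 CPM with and 8.52 without Retnlg in OE-Vector 1, at 63.6 and 13.2 in OE-MLKL 3, at 20.1 and 6.16 in OE-MLKL 2 and at 11.1 and 9.56 in OE-MLKL 1, so that the change was small in the last. The genes lowest with Retnlg were Ltc4s, a leukotriene synthase gene (-1.77), Scimp (-1.68), Ccl3, Hic1 (-1.56) and AU020206.

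**Figure D5:**
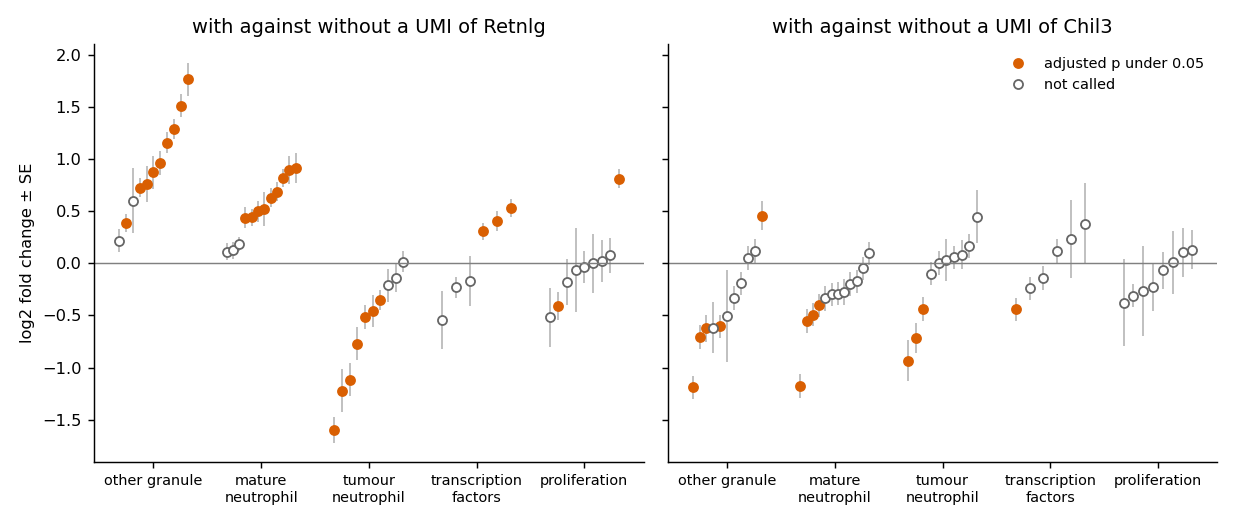
Log2 change ± SE of listed genes between neutrophils with and without a UMI of Retnlg (left) or Chil3 (right), from the edgeR fits over 4 libraries; each point is 1 tested gene, filled where the adjusted p is under 0.05. With Retnlg, 9 of 11 other granule genes and 9 of 12 mature neutrophil genes are higher and 7 of 10 tumour neutrophil genes lower, and with Chil3, 4 of 11 granule genes are lower and 1 higher, and 4 of 12 mature and 3 of 10 tumour neutrophil genes are lower, beside 3.73% of all genes lower.

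For Chil3, with 100, 4343, 6485 and 2710 positive cells, 56 of 8080 genes were higher (0.693%) and 301 lower (3.73%), 4.42% in all. Of the granule list, Cd177 was higher (0.46 ± 0.14), and Slpi (-1.19 ± 0.11), Adam8 (-0.71 ± 0.12), Anxa1 (-0.62 ± 0.13) and Pglyrp1 (-0.60 ± 0.11) were lower, of 11 tested. Ifitm1, Selplg, Clec4d and Cxcr2 were lower among 12 mature genes, by 0.40 to 1.17, and Hilpda, Cd274 and Ccl4 among 10 tumour neutrophil genes, by 0.44 to 0.93. Spi1 was lower (-0.44), and none of 8 genes of proliferation was called. Of the 9 neutrophil check genes, Cxcr2, Clec4d and G0s2 were lower. Of 7 macrophage genes Cd68 was lower (-0.87), and none of 2 tested monocyte, 4 epithelial and 2 T cell genes was called. Over 11 alternatives 3 to 6 granule genes were lower, 2 to 9 mature genes and 1 to 3 tumour neutrophil genes, and at most 1 tumour neutrophil gene was higher. No granule gene was called higher without OE-MLKL 1, 2 or 3, by DESeq2, with all UMIs or with the gate at 5%.

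The genes lowest with Chil3 were Stfa3 (-1.94 ± 0.25), Cd244a (-1.78 ± 0.30), Zfp868 (-1.72 ± 0.44), Wfdc17 (-1.70 ± 0.12) and Steap4 (-1.62 ± 0.35). Wfdc17 was at 480 CPM with and 823 without Chil3 in OE-Vector 1, and at 1918 and 4232, 978 and 3709, and 809 and 2922 in OE-MLKL 1, 2 and 3. Highest were Cdk2 (1.58 ± 0.51), Flt1, a VEGF receptor gene (1.46 ± 0.28), and Gzf1 (1.37 ± 0.37), followed by AU020206, Frs2, C030034I22Rik, Tnfrsf13b, Bcl2l15, Pank3 and Dnajc19 at 0.89 to 1.18. Several of these rested on few UMIs, 131 in all for Cdk2, and 8 of the 10 lost their call in at least 1 alternative, all but AU020206 and Bcl2l15. The positive cells of OE-Vector 1 were 100 and came at a level below the library's free RNA. Retnlg and Chil3 split the same cells of the same libraries, and their changes are given side by side without a comparison.

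For the split on any of Ngp, Ltf and Camp, with 83, 722, 455 and 120 positive cells, 7 of 7777 genes were higher (0.09%) and 2 lower (0.0257%), 0.116% in all. Mmp25, a membrane-bound metalloprotease of neutrophils, was 1.39 ± 0.32 higher (adjusted p = 0.0152), at 48.2 CPM with and 44.0 without in OE-Vector 1 and at 74.7 and 25.4 in OE-MLKL 2. Bcl2l15 (-0.98 ± 0.24) and Slc15a4 (-3.09 ± 0.77) were lower. In the positive cells Slc15a4 was at 0 CPM in OE-Vector 1 and at 2.77, 4.40 and 0 in OE-MLKL 1, 2 and 3. Its change thus rested on very few UMIs in that class. Over the alternatives, calls of the genes named from this split were kept in 10 cases and lost in 23. Of 11 tested granule genes only Mmp25 was called, and no gene of the mature or tumour neutrophil lists was. No granule gene was called in 9 of 11 alternatives, all but RLE scaling and leaving out OE-Vector 1. This split pools Ngp-positive and Ltf-positive cells, whose co-detection with Retnlg ran in opposite directions, and leaving out OE-MLKL 2 left 0 genes called by edgeR, with 196 at an unadjusted p under 0.05.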

How the data were processed

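The authors dissociated tumours with collagenase and DNase, removed red cells and made 10x Genomics 3' libraries. The deposited matrices hold raw UMI counts for 32285 genes and 2295176 to 2991965 barcodes, unfiltered, with 1 library each. Their headers name Cell Ranger 7.1.0 and the submitters' processing notes 2.1.1, with mm10, and whether intronic reads were counted is not stated. The members, lists and tests were chosen with earlier results of these data known.

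From the counts, cells with at least 500 UMIs, more than 200 genes, under 10% mitochondrial and at most 5% haemoglobin UMIs were kept (17416 to 27961 barcodes per library met the gene and mitochondrial limits alone). Each cell was scored by its 50 nearest neighbours among real and simulated cells, and the 11363 cells most like simulated doublets (0.8% per 1000 cells) were removed. Neutrophils had S100a8 and S100a9 at 1% of UMIs or more, macrophages at least 3 UMIs and 0.3% of C1q genes, and cancer cells at least 3 UMIs from 2 of 8 epithelial genes. Cancer-gated cells also had no UMI of Ptprc, and each gate left out cells of the gates named before it. Shares were computed after thinning each cell to 500 UMIs. Intervals (exact Poisson or Clopper-Pearson, 95%) and the limit at a count of 0 (3 counts) cover counting error only.

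Counts were summed per library and gate, or per library and split, and tested with edgeR 4.0.16 (TMM, filterByExpr, quasi-likelihood, two-sided) in R 4.3.3, with DESeq2 1.42.0 as an alternative. OE-MLKL against OE-Vector was 3 libraries against 1, so that the spread came from the OE-MLKL libraries alone. Splits had library as a block. On simulated data with 200 changed genes, the neutrophil contrast recovered 60% of 4-fold and 100% of 16-fold changes (12069 genes), and the Retnlg split 89% and 95% (8197 genes). The changed genes were drawn only from genes above a minimum expected count in every library. Counts were simulated from a dispersion trend, without the scatter of single genes around it. These shares need not hold for the data, where Chil3 at a log2 difference of 6.51 was not called. Named genes are the members, the lists, related genes, and per split the 10 largest changes higher and 5 lower past adjusted p 0.05 with the same sign in every library and at least 50 UMIs. Alternatives were DESeq2, RLE scaling, no filter, doublets kept, other cell filters and gates, all UMIs, and each library left out.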

Additional observations from a re-analysis of the deposited data

Results flagged for a closer look

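Lcn2 moved in opposite directions in 2 gates under the same contrast. The mean level of the 3 libraries labelled OE-MLKL was 3.11 times that of OE-Vector 1 in neutrophil-gated cells, with 3 of 3 libraries higher, and 0.380 times that of OE-Vector 1 in cancer-gated cells, with 3 of 3 lower. Among cells with 1% to 2% of S100a8 and S100a9, OE-MLKL 3 was lower, at 276 CPM against 879, and OE-MLKL 1 and 2 were higher. In ungated cells with neutrophil genes OE-MLKL 3 was also lower, at 65.5 against 329, and OE-MLKL 1 and 2 higher. The difference between the gates was not tested, because it rests on 1 OE-Vector library. In cancer-gated cells the Lcn2 level was below that of the free RNA in each of the 4 libraries, and the part of free RNA was not tested.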

How the results depend on the processing

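No paired analysis was possible because OE-Vector and OE-MLKL share only replicate number 1 among the libraries analysed. Leaving out shared barcodes, scaling by library size alone and gating neutrophils at 5% for the contrast, the monocyte gene classes and the cells below the gate were chosen after seeing the data. Genes called between OE-MLKL and OE-Vector in neutrophils (0 by edgeR, 996 at an unadjusted p under 0.05) were 57 with no filter and 75 by DESeq2, and 14 to 1619 with 1 library left out (84, 14 and 1619 without OE-MLKL 1, 2 and 3). In macrophages (2) they were 11 with no filter, 55 by DESeq2, 1 with the study's cell filter, 0 with the gate at 0.5 times its threshold, and 4 to 128 with 1 library left out. In cancer cells (1) they were 4, 97 by DESeq2, and 4 to 744. The Ngp, Ltf or Camp split (9) gave 16 by RLE, 1 by DESeq2, 4 with all UMIs, 18 with doublets kept, 4 with the gate at 5%, and 0 to 24 with 1 library left out. The Retnlg split (1147) gave 570 by DESeq2, 1870 with all UMIs, 708 without cells holding C1q or epithelial UMIs, and 533 to 1129 with 1 library left out. The Chil3 split (357) gave 144, 875 and 208 in the same order, and 133 to 421. Frs2 in the Chil3 split reversed with doublets kept (-0.078). The causes were not tested. With 727 to 1366 UMIs per neutrophil, shares of low members are limited by depth.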
